A study of Mus musculus with 36 samples.

Results

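At week 3 after inoculation, 3 Py230 mammary tumors of C57BL/6 mice were set against 3 C57BL/6 mammary glands that had received Matrigel without tumor cells, which is 6 of the 36 RNA-seq libraries of the series. Py230 is a mouse mammary tumor cell line. It was made from C57BL/6 mice that carry the polyoma middle T oncogene under the MMTV promoter, which is active in mammary epithelium, and that develop mammary tumors without further treatment. The cells, suspended in PBS and Matrigel (a basement membrane gel), were brought into the ducts of lactating females through the teat just after their pups had been taken away, and the control glands got the gel in the same way. Tumors and glands are therefore of the same strain, time point and reproductive history, and differ in the tumor cells. RNA came from whole frozen tissue, so that fewer cells of a type and less RNA per cell cannot be told apart. The other C57BL/6 libraries are Py230 tumors and Matrigel glands of weeks 1 and 6. The BALB/c libraries are 4T1 tumors and Matrigel glands of weeks 1, 3 and 6. 4T1 is a mammary tumor cell line from BALB/c mice, and its cells carried a luciferase gene. All 36 libraries enter the fit, and some of the other groups are used for comparison.

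A mammary gland after weaning is an epithelial tree in a fat pad. Luminal cells line the ducts and make milk, contractile basal (myoepithelial) cells surround them, and adipocytes, fibroblasts, vessels and immune cells fill the space around the ducts. Genes of each of these compartments were followed in lists, and each tumor is described on its own because the 3 differed widely.

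Values are the deposited scores, in which each library is centered at 0 and scaled to unit SD across its 21650 genes. Across 13567 genes with an authors' mean count of at least 100, 1 score unit went with 2.78 log2 units of mean count, so that a score difference of 0.1 stands for about 1.21-fold. The scores hold no read counts and the sequencing depth of these libraries is unknown.

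The tumors lay at different distances from the glands. Over all genes, tumor 1 correlated with the 3 glands at 0.926 to 0.938, tumor 2 at 0.965 to 0.978 and tumor 3 at 0.980 to 0.991, while the glands correlated with each other at 0.985 to 0.993. Tumor 1 had 860 genes more than 0.5 above and 1591 genes more than 0.5 below the gland mean. Tumor 2 had 396 and 425 such genes, and tumor 3 had 152 and 141. Each gland set against the mean of the other glands had 10 to 142 genes above and 10 to 256 below, so that tumor 3 was nearest to the spread among the glands. Gland 2 stood apart in genes that mark the tumors: Scgb1c1 (a secretoglobin) was at -0.50 there, against -1.97 to -1.77 in the other glands of both strains at all weeks.

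The immunoglobulin V segments, of which each animal's plasma cells use their own selection, were compared between the libraries. After the library and segment means were removed over the 18 libraries from C57BL/6 mice, the levels of 195 V segments correlated at 0.83 to 0.88 among the 3 glands and at 0.92 between tumors 2 and 3. Tumor 1 correlated at -0.12 with tumor 2 and at -0.18 with tumor 3, and tumors correlated with glands at -0.28 to -0.10. With the other 12 libraries from C57BL/6 mice the glands correlated at -0.29 to 0.01, tumors 2 and 3 at -0.19 to 0.07 and tumor 1 at -0.30 to 0.74. In the BALB/c libraries of the same week the replicates correlated at -0.11 to 0.06 (glands) and -0.03 to 0.15 (4T1 tumors), while the C57BL/6 glands of week 6 correlated at 0.93 to 0.94. High values also occurred in other groups: Py230 tumors had -0.22 to 0.94 at week 1 and 0.46 to 0.95 at week 6. The 4T1 tumors had -0.10 to 0.35 and 0.47 to 0.85 at these weeks, BALB/c glands -0.53 to 0.30 and -0.14 to 0.44, and C57BL/6 glands of week 1 had 0.07 to 0.78. The points share segments of like sequence, and these values are a description. The study's text calls the tumor samples of a group independent, and no source used here states that they or the glands came from separate animals. The p-values below thus measure a spread between libraries, pooled within the groups of all 36, and not between animals known to be separate. The count over all genes and the counts of most lists with calls are also given with tumors 2 and 3 averaged into 1 library and the 3 glands averaged into 1, an alternative chosen after seeing the data that was not run for the contrasts with week 6 and with 4T1.

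**Figure D1:**
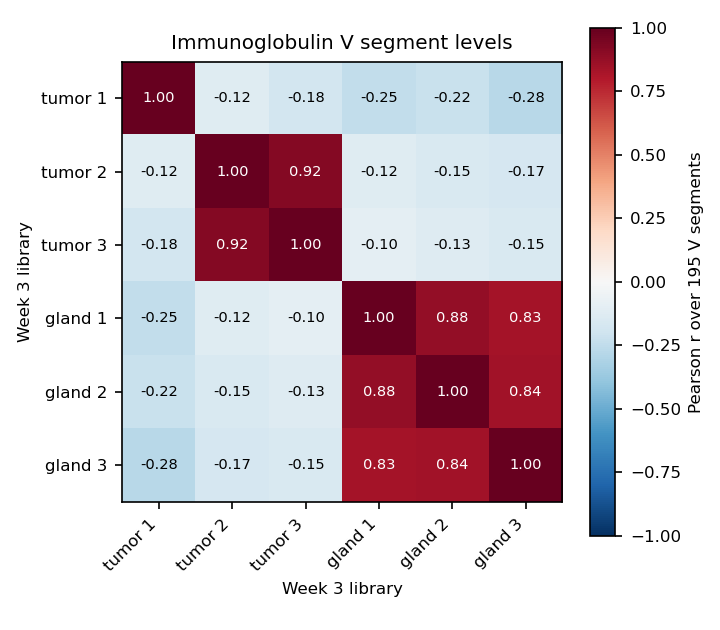
Pearson correlation (color and number) of 195 immunoglobulin V segment scores between the 6 week 3 libraries, after removal of library and segment means over 18 libraries; both axes list the libraries. The 3 glands (0.83 to 0.88) and tumors 2 and 3 (0.92) form blocks of like libraries, and tumor 1 stands by itself.

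Across all genes, 4267 of 21650 differed between tumors and glands at an adjusted p under 0.05 (limma, Benjamini-Hochberg over all genes), which is 19.7% of the genes tested. Of these, 2773 were higher (12.8% of all genes) and 1494 were lower in tumors (6.9%). In 37.3% of all genes the 3 tumor values lay all above (4437 genes) or all below (3643 genes) the 3 gland values. These shares over all genes are the background for the list counts below. The median difference over all genes was 0.02. The number of calls depended on single libraries: it was 943 without tumor 1, 6969 without tumor 3, 2630 without gland 2 and 2478 without gland 3. The lower calls were the more dependent, with 188 left without tumor 1 against 755 higher calls, 993 left without tumor 2, 2546 without tumor 3 and 801, 821 and 789 without glands 1, 2 and 3. The higher calls were 4423 without tumor 3, 1809 without gland 2 and 1689 without gland 3. With the alike libraries averaged, 1036 genes were called, 865 higher and 171 lower. A fit to the 6 libraries alone called 36 genes, 12 higher and 24 lower. An exact permutation test of 3 against 3 libraries cannot give a p below 0.1 for a single gene.

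Scgb1c1 was at 0.69, 0.34 and -0.21 in tumors 1, 2 and 3 and at -1.82, -0.50 and -1.97 in glands 1, 2 and 3. The difference was 1.71 ± 0.24 (SE, 3 against 3 libraries, adjusted p = 2.70e-05 in limma). Each SE and p-value rests on the spread within the groups of all 36 libraries, not of these 6 alone. The SD of Scgb1c1 was 0.45 in these tumors and 0.81 in these glands. Tumor 1 was the highest, and tumor 3 and gland 2 were the nearest to each other. Dmrta2, a DM-domain transcription factor, had 0.65, 0.41 and 0.05 in tumors and -1.41, -0.90 and -1.51 in glands (1.64 ± 0.16). Bhlha15 (Mist1), a transcription factor of secretory cells, had 1.32, 1.10 and 0.68 against -0.45, -0.17 and -0.50 (1.40 ± 0.14). Emid1, which codes for a secreted protein with a collagen domain, had 1.77, 1.53 and 1.08 against -0.10, 0.29 and -0.02 (1.40 ± 0.14). For each of these 4 genes tumor 1 was highest. That the groups were separate was a condition of the choice of the largest increases and decreases.

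The other genes among the 12 largest increases were the tight junction gene Cldn2 (difference 1.43), the synaptotagmin Syt13 (1.42), the cytokine receptor chain Il20rb (1.27), the TNF receptor family member Tnfrsf19 (1.22), the glycosyltransferase B3galt5 (1.20), Sectm1b (1.18), the proton pump subunit Atp6v1c2 (1.17) and the V segment Igkv8-27 (1.59). In Igkv8-27 tumor 1 was the lowest tumor: it was at -0.11 in tumor 1 and at 1.07 and 1.15 in tumors 2 and 3, against -1.06, -0.69 and -0.93 in the glands. All 12 increases remained called when any of the 6 libraries was left out, and 11 of the 12 with the alike libraries averaged. With a fit to the 6 libraries alone none of the 12 was called. Scgb1c1 lies on chr7:140845547-140846769, Emid1 on chr11:5106265-5152257 and Bhlha15 on chr5:144190286-144194441 of mm10.

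Among the 12 largest decreases, 11 were immunoglobulin V segments. Igkv1-133 was at -1.50, -1.38 and -1.48 in tumors and at 1.06, 1.12 and 1.04 in glands (-2.53 ± 0.32, adjusted p = 5.68e-06). Its values were almost equal within each group. Ighv1-12 was at -1.26, -0.51 and -0.66 against 1.08, 1.16 and 1.10 (-1.92), and Ighv5-12 at -1.41, -1.26 and -1.27 against 0.06, 0.33 and 0.23 (-1.52). The other V segments were Ighv1-80 (-1.60), Igkv4-79 (-1.59), Igkv6-20 (-1.44), Ighv1-75 (-1.30), Igkv17-127 (-1.25), Ighv7-3 (-1.25), Ighv1-81 (-1.23) and Igkv1-110 (-1.22). Of all 195 V segments, 40 were lower (20.5%, against 6.9% of all genes) and 1 was higher, with a median of -0.31. None of 11 immunoglobulin constant genes was called (median -0.40). Segments of like sequence can share reads, so the value of a single segment is uncertain. The glands, and tumors 2 and 3, share their selection of segments as described above, and the part of that sharing in these calls was not tested. Of these 11 decreases 6 remained called when any of the 6 libraries was left out, and 4 with the alike libraries averaged.

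Outside the V segments, 11 large decreases (a choice made after the values were seen) held genes of adipocytes and of contractile cells. Cyp2e1, a cytochrome P450 abundant in fat, was at -0.35, 1.03 and 1.30 in tumors and at 2.10, 1.70 and 1.74 in glands (-1.19 ± 0.41, adjusted p = 0.039). Adrb3, the beta-3 adrenergic receptor of adipocytes, was at -0.37, 0.97 and 1.25 against 1.71, 1.45 and 1.45 (-0.92). In both genes tumor 1 was the lowest. Tumors 2 and 3 also lay below all glands, which the choice of genes required. Nnat (-0.98), St6galnac5 (-0.92), Acvr1c (-0.91), Glb1l2 (-0.90), the glutamate transporter Slc1a3 (-0.88), the contractile genes Cnn1 (-0.88) and Actg2 (-0.85) and the plasma peroxidase Gpx3 (-0.85) had the same order. Areg, the amphiregulin gene and a growth factor of hormone-sensing ducts, did not: it was at -0.64, -0.58 and -0.92 in tumors and at 0.39, 0.20 and -0.06 in glands (-0.89 ± 0.28, adjusted p = 0.027). None of these 11 decreases remained called when tumor 1 was left out, although the difference of Areg was then -0.93 (adjusted p = 0.11).

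**Figure D2:**
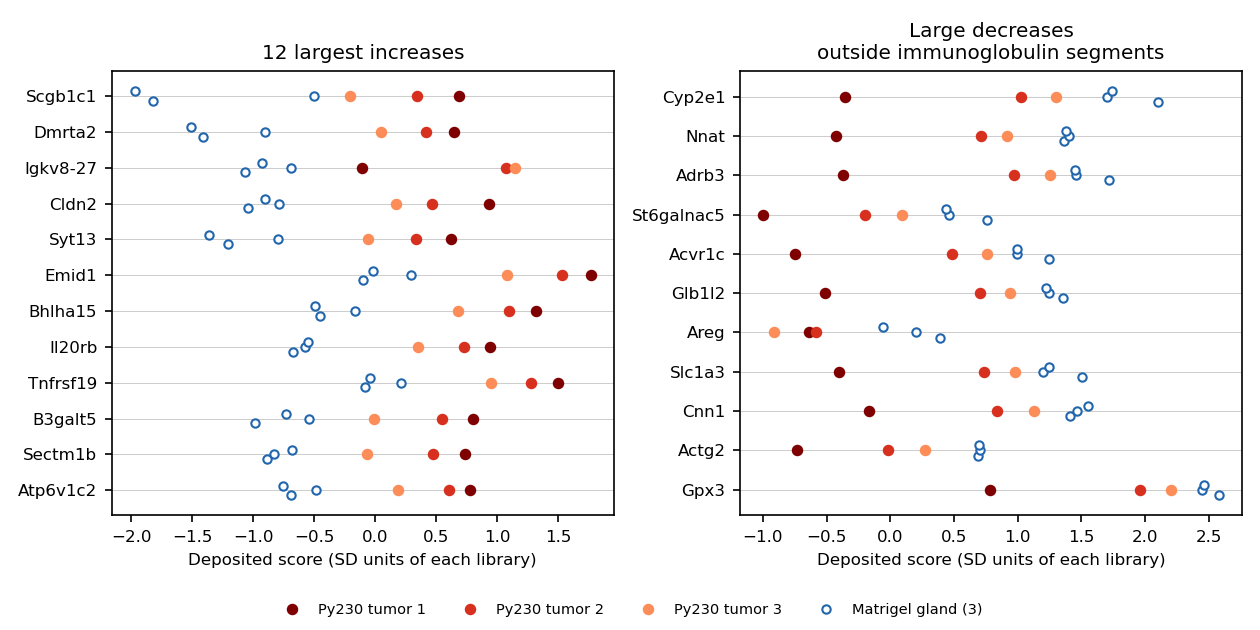
Deposited score (x axis, SD units of each library) of the 12 genes with the largest increase and of 11 genes with a large decrease outside immunoglobulin segments; filled points are the 3 Py230 tumors and open circles the 3 Matrigel glands. Increases are spread over all 3 tumors, while most decreases are carried by tumor 1. Only genes with all tumors on 1 side of all glands could be chosen.

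Genes of cell division were higher. Of 30 mitosis genes, 25 were higher (83.3%, against 12.8% of all genes) and 0 lower. Their median difference was 0.63 against 0.02 over all genes. All 30 had the 3 tumors above the 3 glands, against 4437 of all 21650 genes. Every one of the 30 had its highest value in tumor 1 and its lowest tumor value in tumor 3. Cdc25c, the phosphatase that activates the mitotic kinase, was at 0.31, 0.00 and -0.39 in tumors and at -1.08, -0.86 and -0.93 in glands (0.93 ± 0.18, adjusted p = 7.63e-04). Cdc20, an activator of the anaphase-promoting complex, was at 0.94, 0.72 and 0.29 against -0.26, -0.16 and -0.25 (0.87 ± 0.18). Birc5 (survivin) was at 0.89, 0.62 and 0.30 against -0.32, -0.16 and -0.35 (0.88 ± 0.19). Mki67, which codes for the proliferation antigen Ki67, was at 1.59, 1.30 and 0.99 against 0.61, 0.71 and 0.68 (0.63 ± 0.20, adjusted p = 0.026), and Top2a had a difference of 0.56 (adjusted p = 0.055). The count of 25 depended on single libraries: it was 4 without tumor 1, 16 without tumor 2, 16 without gland 1, 16 without gland 3 and 1 with the alike libraries averaged.

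**Figure D3:**
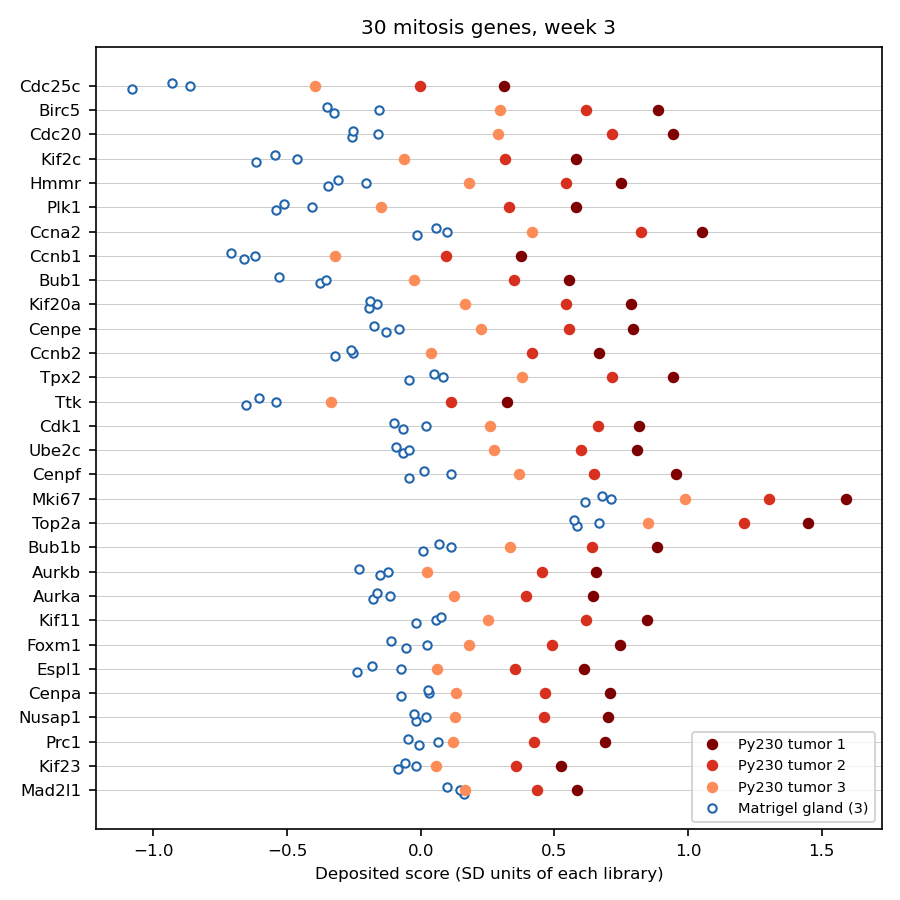
Deposited score (x axis) of 30 mitosis genes (y axis, ordered by the difference of the means) in the 3 Py230 tumors (filled) and the 3 Matrigel glands (open). For all 30 genes tumor 1 lies above tumor 2, tumor 2 above tumor 3 and tumor 3 above the glands.

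The promoters of these genes shared sequence that the list did not use. RefSeq start sites (GRCm38.p6) were found for 24 of the 30 genes, and in the 150 bases before the start 20 of the 24 (83.3%) held the letters CCAAT on either strand, against 25.3% of 27025 promoters. The letters TTTGAA, the core of the cell cycle homology region at mitotic genes, were in 8 of the 24 (33.3%) against 9.24% of promoters, and both motifs in 7 of the 24 (29.2%) against 2.32%. A match describes letters only, and both shares are a description. The 4 genes with the smallest p that held CCAAT and could be printed are shown, 5′ to 3′ on the strand of the gene, with the CCAAT and TTTGAA letters of either strand in capitals. They are Cdc20 (chr4:118437344-118437493, minus strand), the ubiquitin-conjugating enzyme Ube2c (chr2:164769779-164769928, plus strand), the kinase Aurka (chr2:172370571-172370720, minus strand) and the hyaluronan receptor Hmmr (chr11:40733438-40733587, minus strand).
Cdc20: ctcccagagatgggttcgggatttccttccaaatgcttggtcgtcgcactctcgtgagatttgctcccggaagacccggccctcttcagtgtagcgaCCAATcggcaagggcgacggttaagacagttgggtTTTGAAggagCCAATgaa
Ube2c: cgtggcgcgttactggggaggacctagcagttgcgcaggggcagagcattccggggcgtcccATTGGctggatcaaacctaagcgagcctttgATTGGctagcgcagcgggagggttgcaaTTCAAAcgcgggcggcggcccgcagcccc
Aurka: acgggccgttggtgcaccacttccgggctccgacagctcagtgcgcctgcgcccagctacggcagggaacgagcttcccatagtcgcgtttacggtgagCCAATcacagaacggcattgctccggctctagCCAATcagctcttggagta
Hmmr: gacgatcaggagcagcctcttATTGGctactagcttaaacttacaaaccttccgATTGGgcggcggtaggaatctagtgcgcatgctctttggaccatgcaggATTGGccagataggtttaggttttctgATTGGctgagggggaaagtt

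Ube2c was at 0.81, 0.60 and 0.28 in tumors and at -0.07, -0.04 and -0.09 in glands, Aurka at 0.65, 0.39 and 0.13 against -0.18, -0.11 and -0.17, and Hmmr at 0.75, 0.54 and 0.18 against -0.35, -0.21 and -0.31. The 3 genes had differences of 0.63, 0.54 and 0.78. In each, tumor 3 was nearer to the glands than to tumor 1.

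DNA replication genes moved less than mitosis genes. Of 30, 12 were higher (40%, against 12.8% of all genes) and 0 lower (median 0.24). In 11 of the 30 all tumors lay above all glands, against 4437 of all 21650 genes. Ccne2, a cyclin of the entry into S phase, was at 0.37, 0.12 and -0.05 against -0.26, -0.28 and -0.32 (0.43 ± 0.09, adjusted p = 0.0015). The helicase subunit gene Mcm2 was at 0.90, 0.76 and 0.47 against 0.62, 0.58 and 0.52, and Mcm3 had a difference of 0.20. Tumor 3 was not above the glands in Mcm2, and neither gene was called (adjusted p = 0.37 for Mcm2 and 0.21 for Mcm3). The median over the list was 0.42 in tumor 1, 0.27 in tumor 2 and 0.02 in tumor 3. The count of 12 was 1 without tumor 1, 5 without tumor 2, 23 without tumor 3, and 7, 5 and 4 without glands 1, 2 and 3. It was 2 with the alike libraries averaged.

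Cell cycle inhibitors and p53 targets had 4 of 17 higher (23.5%, against 12.8% of all genes) and 0 lower. Cdkn2a, which codes for p16 and p19Arf, was at -0.04, -0.07 and -0.60 against -1.12, -1.01 and -1.21 (0.88 ± 0.12, adjusted p = 3.06e-05). Cdkn1a (p21) was at 1.08, 1.13 and 0.99 against 0.72, 0.81 and 0.77 (0.30 ± 0.07), with 3 nearly equal tumors. Zmat3 (0.22) and Trp53inp1 (0.30) were the other calls, and Cdkn1b (p27) had a difference of -0.03. Of 20 genes of ribosome biogenesis and MYC targets, only Bop1 was called (0.17), and Myc itself was at 0.99, 1.02 and 1.05 against 1.07, 1.05 and 1.04.

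Of 17 milk protein and secretory genes, 7 were higher and 2 lower (median 0.06). That is 41.2% and 11.8%, against 12.8% and 6.9% of all genes. Wap, whey acidic protein, was at 0.16, -0.02 and -0.46 in tumors and at -1.20, -1.08 and -1.05 in glands (1.00 ± 0.19, adjusted p = 5.87e-04). Olah, the thioesterase that ends medium-chain fatty acids in milk fat, was at -0.28, -0.38 and -0.67 against -1.46, -1.23 and -1.39 (0.92 ± 0.13). Lalba, the regulator of lactose synthesis, was at 1.17, 1.08 and 0.95 against 0.34, 0.52 and 0.62 (0.57 ± 0.12). Folr1 (0.64), the kappa casein gene Csn3 (0.43), Lpo (0.18) and the lipid droplet gene Plin2 (0.18) were also higher.

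The casein Csn1s1 was lower, at 1.14, 1.89 and 2.05 against 2.07, 2.14 and 2.35 (-0.50 ± 0.16, adjusted p = 0.028), and so was the milk fat globule gene Mfge8 (-0.34). Csn1s2a had a difference of -0.53 (adjusted p = 0.07). The 2 lower calls were 0 without tumor 1, gland 2 or gland 3 and with the alike libraries averaged, 1 without gland 1 and 4 without tumor 3. The 7 higher calls were 4 without tumor 1, without tumor 2, without gland 1 or without gland 2, and 3 with the alike libraries averaged.

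Luminal keratins were not among the higher genes. Of 26 luminal epithelial genes, 2 were higher and 1 lower (median 0.11). That is 7.69% and 3.85%, below the 12.8% and 6.9% of all genes. The epithelial transcription factor Ehf was at 2.18, 1.96 and 1.68 against 1.19, 1.22 and 1.23 (0.72 ± 0.11, adjusted p = 9.08e-05), and the splicing regulator Esrp1 had a difference of 0.42. Krt8 was at 1.69, 1.71 and 1.63 against 1.88, 1.77 and 1.74 (-0.12, adjusted p = 0.31), and Krt19 was lower at 1.50, 1.79 and 1.88 against 2.03, 2.01 and 2.04 (-0.30, adjusted p = 0.042). The lower call was lost without tumor 1, tumor 2 or any 1 of the glands and with the alike libraries averaged, and the list had 2 lower calls and 5 higher calls without tumor 3. The 2 higher calls were 1 without tumor 1 and 1 with the alike libraries averaged. Of 14 hormone-sensing luminal genes 3 were lower (21.4%, against 6.9% of all genes), namely Areg, Tbx3 (-0.37) and Wnt4 (-0.44). Of these, 0 were left without tumor 1 or gland 1 and 1 without tumor 2, gland 2 or gland 3. Esr1, the estrogen receptor, had a difference of -0.32 (adjusted p = 0.065) and Pgr, the progesterone receptor, was at 0.02, 0.57 and 0.69 against 0.54, 0.50 and 0.44, so that only tumor 1 lay below the glands.

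Fatty acid synthesis behaved differently in tumor 1 than in tumors 2 and 3. Of 15 genes 2 were higher (13.3%, near the 12.8% of all genes) and 0 lower. The mean score of the list was 1.37, 2.01 and 2.21 in tumors and 1.86, 1.58 and 1.61 in glands. Scd2, a stearoyl-CoA desaturase, was at 2.38, 2.29 and 2.23 against 1.55, 1.54 and 1.49 (0.78 ± 0.12, adjusted p = 1.41e-04). Srebf1, the transcription factor of lipid synthesis, was at 2.37, 2.19 and 2.05 against 1.81, 1.64 and 1.66 (0.50 ± 0.08). Fasn, fatty acid synthase, was at 2.36, 3.16 and 3.44 against 3.14, 2.67 and 2.76 (adjusted p = 0.8), and Acly at 1.84, 2.50 and 2.74 against 1.91, 1.65 and 1.69 (adjusted p = 0.082). In Fasn and Acly tumors 2 and 3 lay above all glands while tumor 1 did not. Neither gene was called without tumor 1 (adjusted p = 0.51 for Fasn and 0.053 for Acly). Both higher calls remained without any one library.

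About as many genes of the basal layer were lower as were not called. Of 15 basal and myoepithelial genes, 7 were lower (46.7%, against 6.9% of all genes) and 1 higher (median -0.53). In 11 of them all tumors lay below all glands, against 3643 of all 21650 genes. Acta2, smooth muscle actin, was at 1.21, 1.85 and 2.07 in tumors and at 2.38, 2.42 and 2.48 in glands (-0.72 ± 0.19, adjusted p = 0.011). Cnn1 (calponin) was at -0.17, 0.84 and 1.12 against 1.41, 1.46 and 1.55. Tagln (-0.53), Mylk (-0.54), Myh11 (-0.75), the P-cadherin gene Cdh3 (-0.58) and the Notch ligand Jag2 (-0.39) were the other lower calls. Krt5, the keratin that marks this layer, was at 0.62, 1.24 and 1.41 against 1.56, 1.61 and 1.78 (-0.56 ± 0.24, adjusted p = 0.095), and Krt14 had a difference of -0.53 (adjusted p = 0.099). In both keratins the groups did not overlap.

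The 1 higher basal gene was Sox10, at 1.72, 1.63 and 1.36 against 1.11, 1.21 and 1.28 (0.37 ± 0.09, adjusted p = 0.0063). Of 11 smooth muscle and pericyte genes, of which several are shared with the basal list, 6 were lower (54.5%, against 6.9% of all genes, median -0.23). The pericyte genes Notch3 (-0.21) and Rgs5 (-0.22) were among them. No lower call of either list was left without tumor 1 or with the alike libraries averaged, and 3 in each were left without gland 3.

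A part of the stromal genes was lower, mostly with smaller differences. Of 22 genes of fibrillar collagen and matrix, 6 were lower (27.3%, against 6.9% of all genes) and 1 higher (median -0.28). In 16 of them all tumors lay below all glands, against 3643 of all 21650 genes. Col6a3 was at 1.22, 1.40 and 1.64 against 1.74, 1.87 and 1.77 (-0.38 ± 0.11, adjusted p = 0.017), and Col6a1 and Col6a2 had differences of -0.34 and -0.38. The main interstitial collagens Col1a1 (-0.19, adjusted p = 0.4) and Col1a2 (-0.24, adjusted p = 0.23) were not called. The 1 higher gene was Col11a1, at 1.84, 1.63 and 1.06 against 0.16, 0.59 and 0.47 (1.11 ± 0.15, adjusted p = 1.65e-05). The 6 lower calls were 0 without tumor 1, 2 without tumor 2, 10 without tumor 3 and 3, 0 and 2 without glands 1, 2 and 3. They were 10 with libraries rescaled by median and MAD, and 0 with the alike libraries averaged.

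Of 16 fibroblast genes 6 were lower (37.5%, against 6.9% of all genes) and 0 higher (median -0.33). The chemokine gene Cxcl12 was at 1.13, 1.48 and 1.61 against 1.75, 1.75 and 1.77 (-0.35 ± 0.08, adjusted p = 0.0046), and Gsn (gelsolin) at 1.54, 2.72 and 2.98 against 3.06, 3.04 and 3.04. Fap (-0.34), Igf1 (-0.44), Pdgfrb (-0.23) and Cd34 (-0.33) were the other calls. The count was 0 without tumor 1, 12 without tumor 3 and 2, 1 and 2 without glands 1, 2 and 3, and 0 with the alike libraries averaged. Of 18 basement membrane genes 4 were lower (22.2%, against 6.9% of all genes), namely Hspg2, Lamb1, Lama1 and Lama2, with differences of -0.32, -0.33, -0.58 and -0.45. This count was 0 without tumor 1, 9 without tumor 3, 2 without gland 2 or gland 3 and 0 with the alike libraries averaged.

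Of 19 endothelial genes 5 were lower (26.3%, against 6.9% of all genes, median -0.17). The endoglin gene Eng was at 1.02, 1.13 and 1.23 against 1.37, 1.30 and 1.30 (-0.20 ± 0.04, adjusted p = 0.0011), and Vwf and Pecam1 had differences of -0.42 and -0.17. The count was 1 without tumor 1, 8 without tumor 3, 2 without gland 1 and 1 with the alike libraries averaged. Of 13 angiogenic ligands 4 were lower (Pdgfb, Hgf, Fgf2 and Angptl4), which is 30.8% against 6.9% of all genes. The placental growth factor gene Pgf was higher (0.42). The 4 lower calls were 0 without tumor 1, 8 without tumor 3, 2 without gland 1 and 0 with the alike libraries averaged. Vegfa was at 0.87, 1.06 and 1.29 against 1.34, 1.23 and 1.17 (-0.17, adjusted p = 0.25). Mmp9, gelatinase B, was lower, at -0.68, 0.32 and 0.48 against 0.57, 0.84 and 0.64 (-0.64 ± 0.21, adjusted p = 0.035), and 1 other of 20 metalloproteinase and inhibitor genes, Timp2, was lower as well (-0.25). These 2 lower calls are 10% of that list, near the 6.9% of all genes. Neither call was left without tumor 1.

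Of 14 EMT factors 4 were lower (28.6%, against 6.9% of all genes) and 1 higher. Zeb2 was at 0.90, 1.20 and 1.39 against 1.54, 1.50 and 1.48 (-0.34), Zeb1 had a difference of -0.31, Prrx1 of -0.43 and the N-cadherin gene Cdh2 of -0.26. Tgfb2 was the higher gene (0.35), and it was not called without tumor 1, tumor 2 or gland 3. The 4 lower calls were 1 without tumor 1, 2 without gland 1, 1 without gland 2, 7 without tumor 3 and 0 with the alike libraries averaged. Snai1 and Snai2 had differences of 0.04 and -0.27 and were not called.

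Adipocyte and muscle genes showed the unevenness most. Of 22 adipocyte genes 2 were lower (9.09%, near the 6.9% of all genes), Cebpa (-0.35) and Adrb3, with a list median of -0.63. The median difference from the glands was -1.53 in tumor 1, -0.33 in tumor 2 and -0.09 in tumor 3, and all 22 genes had the order of tumor 1 lowest and tumor 3 highest. Adipoq, adiponectin, was at 0.44, 1.99 and 2.24 against 2.42, 2.15 and 2.20 (adjusted p = 0.18), and the leptin gene Lep at -0.22, 1.09 and 1.38 against 1.36, 1.36 and 1.42. Without tumor 3, 17 of the 22 were lower, and without tumor 1 none was. Skeletal muscle genes, of which 18 were measured and 0 called, had medians of -2.27, -1.27 and 0.30 in tumors 1, 2 and 3. Acta1 was at -0.38, 1.20 and 2.79 against 2.00, 2.83 and 2.64, and Ckm at -0.80, 0.68 and 2.24 against 1.40, 2.23 and 2.06, so the glands differed among themselves as well. How much muscle was taken with each sample was not tested.

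The genes with the largest range over the 3 tumors and a gland range under 0.3 were Ces1d, Amy1, Pnpla3, A530016L24Rik, Igkv4-74 and Ighv1-64. Ces1d, a carboxylesterase of adipocytes, was at -0.18, 1.56 and 1.82 against 2.03, 1.76 and 1.80. Amy1, Pnpla3 and A530016L24Rik had ranges of 1.86, 1.84 and 1.96 over the tumors, and the V segments Igkv4-74 and Ighv1-64 of 2.62 and 1.90. Whether reads of related amylase genes add to the value of Amy1 was not tested. In all 6, tumor 1 was below the glands and tumors 2 and 3 were within 0.5 of the gland mean, and none was called.

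**Figure D4:**
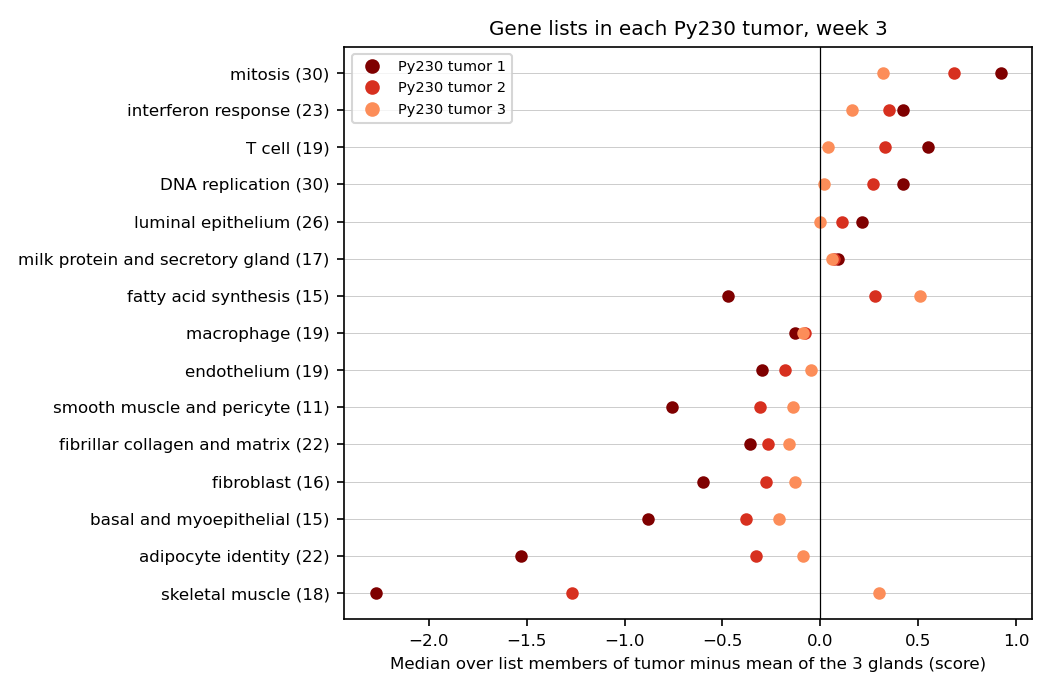
Median over the members of each gene list (y axis, number of measured genes in brackets) of the tumor score minus the mean of the 3 glands (x axis), for each Py230 tumor. Mitosis genes are above 0 in all 3 tumors (0.92, 0.68 and 0.32), and adipocyte and muscle genes are far below 0 in tumor 1 (-1.53 and -2.27).

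A part of the interferon-stimulated genes was higher. Of 23, 7 were higher (30.4%, against 12.8% of all genes) and 0 lower (median 0.35). In 18 of the 23 all tumors lay above all glands, against 4437 of all 21650 genes. Ifi44 was at 1.21, 1.06 and 0.71 in tumors and at 0.33, 0.50 and 0.53 in glands (0.54 ± 0.16, adjusted p = 0.02). The chemokine gene Cxcl10 was at 0.46, 0.43 and 0.01 against -0.65, -0.42 and -0.32 (0.76 ± 0.24, adjusted p = 0.026). Gbp3 (0.42), Oas1a (0.44), Rsad2 (0.40), Oasl2 (0.40) and Gbp2 (0.36) were the other calls, while Ifit1 (0.30) and Ifit2 (0.15) were not called. The count was 0 without tumor 1, without tumor 2 or without gland 1, 12 without tumor 3, 2 without gland 2, 3 without gland 3 and 0 with the alike libraries averaged. The 14 genes of MHC class I and peptide loading had a median of 0.10 and no call, against 3 higher without tumor 3.

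Few immune cell markers were called. Of 19 T cell genes 0 were called, although their median difference was 0.55 in tumor 1, 0.33 in tumor 2 and 0.04 in tumor 3. Without tumor 3, 5 of them were called higher. Cd3e was at -0.15, -0.45 and -0.76 against -0.70, -0.79 and -0.70 (0.28 ± 0.17, adjusted p = 0.25), and Foxp3 at 0.23, 0.06 and -0.05 against -0.14, -0.19 and -0.15 (adjusted p = 0.092). Of 15 cytotoxic lymphocyte genes the chemokine gene Xcl1 was higher (0.49), and Gzmb had a difference of 0.48 (adjusted p = 0.086). Of 19 macrophage genes (median -0.10) and 15 genes of alternatively activated macrophages (median -0.26) 0 were called. Adgre1, the F4/80 antigen, was at 1.12, 1.14 and 1.12 against 1.12, 1.27 and 1.18. Cd274, which codes for PD-L1, was at 0.20, 0.33 and 0.35 against 0.38, 0.28 and 0.31 (adjusted p = 0.88), and 0 of 14 immune checkpoint genes was called, against 3 without tumor 3.

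Some mast cell genes were lower. Of 14 eosinophil and mast cell genes 5 were lower (35.7%, against 6.9% of all genes) and 0 higher (median -0.28). The mast cell tryptase gene Tpsb2 was at -0.22, 0.18 and 0.46 against 0.54, 0.76 and 0.58 (-0.48 ± 0.13, adjusted p = 0.011), and the protease genes Cpa3, Mcpt4 and Cma1 had differences of -0.54, -0.53 and -0.45. The fifth was the eosinophil chemokine gene Ccl11 (-0.42). Siglecf, an eosinophil surface gene, had a difference of -0.10 (adjusted p = 0.77). The count was 0 without tumor 1, 3 without gland 1, 0 without gland 2 and 0 with the alike libraries averaged. Of 18 complement genes 4 were lower (22.2%, against 6.9% of all genes). C3 was at 1.54, 2.19 and 2.38 against 2.63, 2.56 and 2.47 (-0.52 ± 0.14), and C1s1, C2 and C1ra had differences of -0.35, -0.35 and -0.30. Of the 4, 0 were left without tumor 1 or gland 1 and 1 without gland 2 or gland 3, 9 were called without tumor 3 and 0 with the alike libraries averaged.

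Among 18 neutrophil genes only S100a8 was called, at -0.23, -0.59 and -0.82 against -1.43, -1.22 and -1.17 (0.72 ± 0.16, adjusted p = 0.0022). Among 17 genes of dendritic cells and MHC class II it was Ccr7, the receptor for lymph node homing (0.74, adjusted p = 0.044). This call was lost without tumor 1, tumor 2 or any 1 of the glands and with the alike libraries averaged. Pax5, the transcription factor that holds B cell identity, was at -0.20, -0.68 and -0.72 against -1.50, -1.47 and -1.48 (0.95 ± 0.13, adjusted p = 1.61e-05) and rose in all 3 tumors. The B cell surface gene Ms4a1 (CD20) was at -1.51, -1.54 and -1.67 against -1.52, -1.63 and -1.63, a difference of 0.02 (adjusted p = 0.88). The plasma cell receptor gene Tnfrsf17 was lower (-0.28), a call lost without tumor 1, tumor 2, gland 2 or gland 3 and with the alike libraries averaged.

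Hypoxia and glycolysis genes had 4 of 24 higher and 1 lower (median 0.05), which is 16.7% and 4.17% against 12.8% and 6.9% of all genes. Car9, carbonic anhydrase IX, was at 0.77, 0.49 and 0.04 in tumors and at -0.75, -0.45 and -0.78 in glands (1.09 ± 0.15, adjusted p = 3.14e-05). Egln3 (0.58), Pfkl (0.41) and Hk1 (0.37) were also higher, while Bnip3 was lower at -0.15, 0.41 and 0.70 against 1.01, 0.82 and 0.87 (-0.58). The lower call of Bnip3 was lost without tumor 1 or gland 1 and with the alike libraries averaged. Hif1a (0.14) and the glucose transporter gene Slc2a1 (0.06) were not called. Of 22 genes of oxidative phosphorylation 0 were called (median -0.02). The lists of brown adipocyte, erythroid and nerve genes had 0 of 8, 0 of 4 and 2 of 10 called, and 1 of 13 keratinocyte genes, Krt16, was lower (-0.42), a call that was lost without tumor 1, tumor 2 or any 1 of the glands and with the alike libraries averaged. Of 28 genes of epithelial tumor-linked secreted and surface proteins, Cd24a was higher (0.34) and 5 were lower (17.9%, against 6.9% of all genes). Wnt7b (-0.32), Wnt5a (-0.37), Id1 (-0.41) and Id3 (-0.30) were among the lower genes. Of these 5, 0 were left without tumor 1 or gland 1 and 3 without gland 2 or gland 3.

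The 28 hallmark gene sets deposited with the study, which it chose on these libraries and which are thus no independent evidence, were counted in the same way. Of 191 E2F targets 75 were higher and 1 lower (median 0.15), of 189 G2M checkpoint genes 72 and 6 (0.14), of 180 MYC targets 65 and 4 (0.09) and of 188 mTORC1 genes 50 and 7 (0.09). The higher genes were 39.3%, 38.1%, 36.1% and 26.6% of these sets, against 12.8% of all genes. Nasp, a histone chaperone among the E2F targets, was at 1.21, 1.02 and 0.79 against 0.60, 0.57 and 0.55. Rad23b, in both the G2M and MYC sets, was at 1.82, 1.72 and 1.58 against 1.44, 1.47 and 1.43, and Pik3r3, a regulatory subunit of PI3 kinase in the mTORC1 set, was at 1.56, 1.30 and 0.92 against 0.29, 0.37 and 0.29 (0.94 ± 0.09, adjusted p = 1.86e-07). Without tumor 1 the 4 sets had 10, 15, 15 and 20 higher genes, and with the alike libraries averaged 11, 13, 18 and 16.

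By count, the set with the most lower genes was that of epithelial-mesenchymal transition, with 49 of 183 lower (26.8%) and 3 higher (median -0.18). By share, WNT beta-catenin signaling (11 of 38, 28.9%) and angiogenesis (9 of 32, 28.1%) were above it, against 6.9% of all genes. In the epithelial-mesenchymal transition set the 2 genes with the smallest p, Col11a1 and Id2 (0.58), were both among the 3 higher. Of 193 adipogenesis genes 24 were lower (12.4%) and 10 higher, Pfkl and the sterol reductase gene Dhcr7 (0.45) having the smallest p. Of 135 genes lowered after UV 28 were lower (20.7%) and 5 higher. Without tumor 1 the transition, adipogenesis and UV sets had 3, 0 and 8 lower genes, and with the alike libraries averaged 2, 2 and 8. The WNT and angiogenesis sets had 2 lower genes each in both settings. Of 193 interferon gamma and 96 interferon alpha response genes 23 and 14 were higher, which is 11.9% and 14.6% against 12.8% of all genes, and the counts were 4 and 1 without tumor 1 and 3 and 1 with the alike libraries averaged.

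To place each week 3 tumor, genes were taken that differed by more than 1 in the Py230 tumors of week 6 from their own glands, with an authors' mean count of at least 100. The difference used no week 3 library, while the mean count is over all libraries. Of these, 54 were higher at week 6 (median 1.16). In the 3 week 3 tumors the same genes had medians of 1.06, 0.83 and 0.42 above the week 3 glands, and 47 of the 54 were in the order of tumor 1, tumor 2 and tumor 3. At week 3, 37 of the 54 were called higher, against 12.8% of all genes. The other 278 genes were lower at week 6 (median -1.29), with medians of -1.15, -0.30 and -0.08 in tumors 1, 2 and 3. At week 3, 56 of the 278 were called lower, against 6.9% of all genes.

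The median share of the week 6 effect was thus 86.5%, 64.6% and 34.5% for the higher genes and 91.6%, 22.7% and 5.58% for the lower genes. Tumor 1 was near the week 6 tumors in both directions, while tumors 2 and 3 had a larger share of the increases than of the decreases. In 34 of the 54 genes gland 2 was the highest of the 3 glands, with a median of 0.13 over the mean of the other glands.

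**Figure D5:**
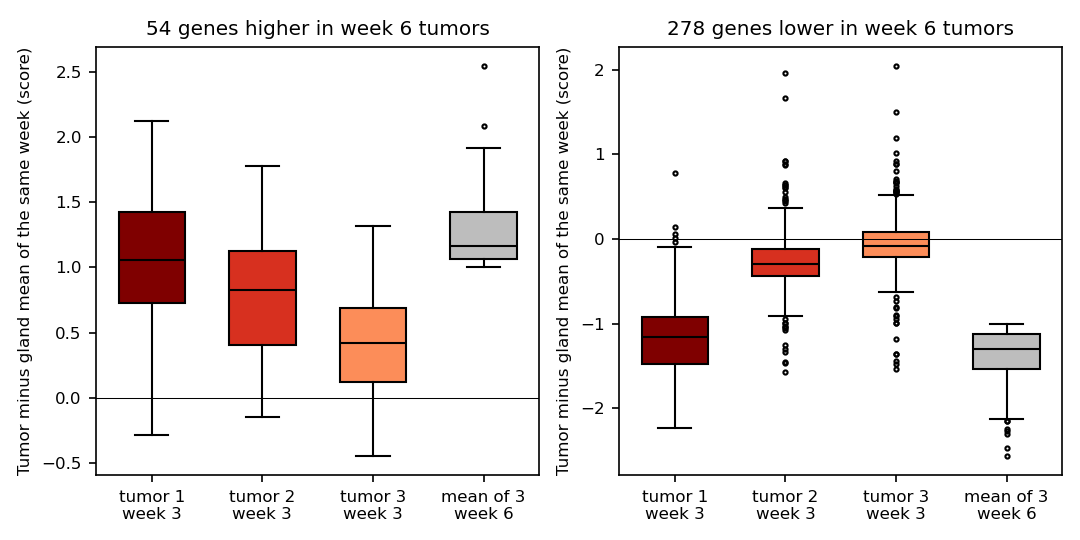
Tumor minus gland mean of the same week (y axis, score) for 54 genes that were higher and 278 that were lower in week 6 Py230 tumors, in each week 3 tumor and in the mean of the 3 week 6 tumors (gray, used for the choice of genes). Boxes are quartiles with the median, whiskers reach 1.5 times the box height and points lie beyond; for the lower genes the medians are -1.15, -0.30 and -0.08.

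The tumor effect at week 3 was set against that at week 6, each with its own glands, in an interaction contrast that shares the week 3 libraries with the comparison above. It differed for 986 genes (4.55% of genes tested), 339 with a higher and 647 with a lower week 3 effect. This count was 2792 without week 3 tumor 1, 579 and 448 without week 3 tumors 2 and 3, 512 and 507 without week 3 glands 1 and 2, 480 and 332 without week 6 tumors 1 and 2, and 456 and 576 without week 6 glands 2 and 3. Ribosome biogenesis and MYC targets had 12 of 20 genes with a lower effect at week 3, against 647 of all 21650 genes. Their median was 0.07 at week 3 and 0.30 at week 6. Nop58, a snoRNP core protein, had 0.08 at week 3 and 0.42 at week 6 (adjusted p of the difference 0.012), and Myc had -0.04 and 0.34 (0.041).

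Milk and lipid genes had the reverse. Over all 21650 genes, 339 had a higher effect at week 3. Of 17 milk genes 7 had a higher effect at week 3, among them Csn2 (beta casein) with -0.46 at week 3 and -1.37 at week 6, Csn1s1 with -0.50 and -1.39, and Btn1a1 (butyrophilin) with -0.15 and -1.14. Of 15 fatty acid synthesis genes 4 did, among them Scd1 with 0.08 and -1.53 and Acly with 0.61 and -0.81. Another 4 genes (chosen after their values were seen) were below the glands at week 3 and above them at week 6: Areg (-0.89 and 0.81), Cdh2 (-0.26 and 0.67), Krt19 (-0.30 and 0.36) and Krt8 (-0.12 and 0.37). The mitosis list had 0 of 30 genes that differed between the weeks, with medians of 0.63 and 0.77.

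Against the 4T1 tumors of the same week, which grew in BALB/c glands and were compared with their own Matrigel glands, the Py230 effect differed for 1980 genes (9.15% of genes tested), 1409 with a higher and 571 with a lower Py230 effect. The 4T1 tumors themselves differed from their glands in 704 genes (455 higher, 249 lower), against 4267 for Py230. They were uneven too, with Mki67 at 0.45 to 1.21. The cell line and the strain of the mouse cannot be told apart in this contrast. The count was 569 without Py230 tumor 1, 1313 without tumor 2, 3942 without tumor 3, 1110 and 1290 without C57BL/6 glands 2 and 3 and 1070 without BALB/c gland 2. All of the 12 genes with the largest increase except Tnfrsf19 and Sectm1b differed at week 3. At week 6 the 4T1 tumors had Dmrta2 at 0.35 to 0.43 and Cldn2 at 0.58 to 0.94, within or near the range of the Py230 tumors of week 3. Milk and luminal genes had 6 of 17 and 6 of 26 genes with a higher Py230 effect and 0 with a lower one. Over all 21650 genes these counts were 1409 and 571. Wap had 1.00 in Py230 and -0.03 in 4T1 tumors, Lalba 0.57 and -0.44, Ehf 0.72 and -0.15, and Sox10 0.37 and -0.29.

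In the matrix, eosinophil and mast cell, and macrophage lists most of the genes that differed had a lower Py230 effect. Over all 21650 genes, 571 had a lower and 1409 a higher Py230 effect. Of 22 genes of fibrillar collagen and matrix 8 had a lower and 1 (Col11a1, 1.11 and -0.48) a higher Py230 effect. Col6a2 had -0.38 in Py230 and 0.38 in 4T1 tumors (adjusted p of the difference 0.0035) and Fn1, fibronectin, -0.29 and 0.52. Of 14 eosinophil and mast cell genes 7 had a lower Py230 effect, among them Ccl11 (-0.42 and 0.42), and of 19 macrophage genes 6 did, among them Adgre1 (-0.06 and 0.58). Of 15 genes of alternatively activated macrophages 1 did. Mmp9 had -0.64 and 0.35 (adjusted p 0.040). The T cell, interferon and mitosis lists had 0 genes that differed between the models, with medians of 0.28, 0.35 and 0.63 in Py230 and 0.62, 0.20 and 0.34 in 4T1 tumors.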

How the data were processed

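RNA from whole frozen tumors and glands was sequenced as stranded paired-end libraries. Per the study's methods the authors aligned reads to mm10 with STAR, counted them per gene with summariseOverlaps and normalized with DESeq2, with versions and annotation not given in the sources used here. The deposited expression table holds scores, and per the file every library is centered at 0 and scaled to unit SD. It maps all columns to samples. From a deposited results table only the authors' mean count over all libraries (as a signal of abundance) and the symbols were used. Its fold changes and p-values, the authors' own comparisons, were not used. Hallmark membership came from a deposited table. Depth per library is unknown, so no count test or counting interval was possible.

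All 36 libraries were fitted with 12 group means in limma 3.58.1 (R 4.3.3, mean trend, robust empirical Bayes), with Benjamini-Hochberg adjustment over 21650 genes and a threshold of 0.05. The fit was run on simulated data with independent libraries and, for each gene, an equal spread in all groups. The simulation thus did not cover the uneven tumors or the alike libraries. Named genes were the 12 largest called changes in each direction with separate groups and a mean count of at least 100, the genes with the smallest p and the first members of each list, the genes with the largest range over the tumors, and Mki67, Krt5, Krt8, Cd274, Vegfa and Mmp9. Other members named were chosen after their values were seen. The comparison and the lists were chosen with earlier results of these data known. Alternatives were other scalings, filters and fits, a replicate block, and leaving out or averaging libraries. Some items are not reported here.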

Additional observations from a re-analysis of the deposited data

Results flagged for a closer look

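In both interaction contrasts, genes passed a test of the difference between 2 tumor effects (limma, adjusted p under 0.05): 986 genes for Py230 week 3 against week 6 and 1980 genes for Py230 against 4T1 at week 3. The values given here are differences of score differences for the genes named in the report. Groups of 3 libraries were not tested for outlying libraries.

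The week 3 effect lay above the week 6 effect in the milk and lipid genes Plin2 (0.42), Csn1s1 (0.89), Csn1s2a (1.00), Csn2 (0.92), Btn1a1 (0.99), Acly (1.42) and Scd1 (1.61). It lay below the week 6 effect in the keratin, adhesion and signaling genes Areg (-1.70), Krt8 (-0.49), Krt19 (-0.66), Cdh2 (-0.92), Snai1 (-0.48), Pdgfb (-0.47) and Wnt7b (-0.56) and in the growth and cell cycle genes Cdkn1a (-0.36), Zmat3 (-0.28), Bop1 (-0.20), Myc (-0.38) and Nop58 (-0.34). The V segments had Igkv8-27 (3.44), Igkv1-133 (-2.47) and Ighv1-12 (-1.26).

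The Py230 effect lay above the 4T1 effect in the genes with the largest increases, Scgb1c1 (1.70), Dmrta2 (1.51), Bhlha15 (1.25), Emid1 (1.29), Cldn2 (1.11), Syt13 (1.26), Il20rb (1.21), B3galt5 (1.35), Atp6v1c2 (0.84) and Igkv8-27 (1.42). It also lay above in the epithelial and milk genes Wap (1.04), Olah (1.17), Lalba (1.01), Folr1 (0.93), Csn3 (0.72), Plin2 (0.32), Ehf (0.88), Esrp1 (0.65) and Sox10 (0.66). The same held for the metabolic genes Scd2 (0.99), Srebf1 (0.72), Dhcr7 (0.54), Car9 (0.82), Pfkl (0.54) and Hk1 (0.40) and for Ccne2 (0.40), Cdkn2a (0.70), Zmat3 (0.22), Rad23b (0.24), Pik3r3 (1.09), Id2 (0.48), Col11a1 (1.59), Pgf (0.54), Tgfb2 (0.57) and Pax5 (0.73).

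It lay below the 4T1 effect in the stromal and vessel genes Col6a3 (-0.58), Col6a1 (-0.69), Col6a2 (-0.76), Fn1 (-0.81), Cxcl12 (-0.38), Eng (-0.25), Hgf (-0.48), Zeb2 (-0.51) and Mmp9 (-0.99) and in the immune genes Adgre1 (-0.65), Tpsb2 (-0.71), Ccl11 (-0.83) and C3 (-0.79). The V segments had Igkv1-133 (-2.67), Ighv1-12 (-2.23), Ighv5-12 (-1.64), Ighv1-80 (-1.70), Igkv4-79 (-1.43), Ighv1-75 (-1.50) and Ighv7-3 (-1.44). The cell line and the host strain cannot be told apart in these values, and the 4T1 tumors differed from their own glands in 704 genes only.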

How the results depend on the processing

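No genes could be tested by counts, since depth is unknown and 3 libraries a group limit the precision. Leaving out 1 library at a time gave 943 to 6969 genes for the week 3 comparison (755 to 4423 higher and 188 to 2546 lower), 332 to 2792 for week 3 against week 6 (93 to 1119 and 239 to 1673) and 569 to 3942 for Py230 against 4T1 (478 to 2821 and 91 to 1121). In the gene lists it gave 4 to 30 mitosis, 1 to 23 DNA replication, 0 to 12 interferon and 4 to 7 milk genes higher, and 0 to 10 basal, 0 to 12 fibroblast, 0 to 10 matrix, 0 to 7 smooth muscle, 1 to 8 endothelial and 0 to 6 eosinophil and mast cell genes lower. With a fit to the 6 libraries alone 36 genes were called, 12 higher and 24 lower. With all 9 C57BL/6 glands as control 7384 were called (4616 and 2768). Array weights did not converge and gave tumor 2 a weight of 3140 against 0.156 and 0.211 for tumors 1 and 3. Their counts were 14177 (7754 and 6423), 9765 (3860 and 5905) and 7909 (4765 and 3144) for the 3 comparisons, and are not to be relied on. With the alike libraries averaged, chosen after seeing the data, 1036 genes were called (865 and 171), with 1 mitosis, 2 DNA replication, 0 interferon and 3 milk genes higher, 1 endothelial gene lower and 0 lower in the other 5 lists. Rescaling by median and MAD gave 10 lower matrix genes. The causes of these changes were not tested.

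Replicate numbers are shared by the groups. Same-numbered tumors and glands deviated together at correlations of 0.103, -0.212 and 0.037, and differently numbered ones at -0.226 to 0.289. With 3 libraries a group these values cannot tell whether same-numbered libraries are paired. With the replicate block the counts were 4563, 1084 and 2170. Quantile normalization, cyclic loess, an ordinary empirical Bayes fit and a filter at a mean count of 10 left every total within 1.5 times. The median difference over all genes was 0.02 as deposited, 0.01 after quantile normalization and -0.002 after cyclic loess, and the share of calls that were higher was 65%, 63.6% and 56%.

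For the 183 named genes, 2302 of 2926 values under 16 settings kept direction and side of the threshold, 539 fell short of it, 55 passed it newly and 30 changed sign, all in genes that were not called. The sign changed with array weights in Pgr (0.076), Snai1 (-0.011), Pnpla3 (0.075), A530016L24Rik (0.12), Igkv4-74 (0.11), Ighv1-64 (0.014) and Cd274 (0.013). It changed with quantile normalization in Ms4a1 (0) and Scd1 (-0.007). It changed with cyclic loess in Ms4a1 (-0.003). It changed with all 9 glands as control in Myc (0.11), Krt8 (0.083), Fasn (-0.20), Igkv4-74 (0.055), Ms4a1 (-0.046) and Scd1 (-0.17). It changed with the alike libraries averaged in Fasn (-0.026) and Scd1 (-0.074). With 1 library left out the differences ranged over 0 in Pgr (-0.20 to 0.14), Snai1 (-0.036 to 0.092), Pnpla3 (-0.71 to 0.21), A530016L24Rik (-0.76 to 0.22), Igkv4-74 (-1.14 to 0.17), Ighv1-64 (-0.88 to 0.068), Cd274 (-0.060 to 0.013), Ms4a1 (-0.009 to 0.069), Scd1 (-0.13 to 0.40) and Fasn (-0.095 to 0.44).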
